A study of Mus musculus with 11 samples.

Results

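The NR4A receptors Nr4a1, Nr4a2 and Nr4a3 are described here with 7 genes that respond to cyclic AMP (cAMP): Crem, Sik1, Pde4b, Pde4d, Gem, Arc and Rgs2. They were measured in the colon of adult C57BL/6 mice by oligonucleotide microarray. The 10 genes were chosen by name with the values of these same arrays already known, so their levels and differences are a description and carry no test. They are 10 of 18193 genes with a probe set of a single gene symbol, and they hold 30 of the 34945 such probe sets. The arrays form a time series of colon labelled as taken before imatinib (3 control arrays), 3 h after imatinib (4 arrays) and 12 h after imatinib (4 arrays). Imatinib is an inhibitor of the Abl, Kit and PDGF receptor tyrosine kinases. The labels do not say whether the control mice were injected or at what hour they were sampled, so imatinib, the handling of the mice and the time of day cannot be told apart. The labels number the replicates but do not say that each array is a separate mouse, so errors and p-values measure the spread between arrays.

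cAMP is made by adenylyl cyclases when a hormone or neurotransmitter engages a receptor coupled to a stimulatory G protein. It activates protein kinase A (PKA), which phosphorylates CREB, a transcription factor that binds cAMP response elements (CREs) in promoters, and many CREB targets are immediate early genes whose transcripts appear and decay within hours. Several of them feed back on the pathway: Pde4b and Pde4d encode phosphodiesterases that destroy cAMP, Crem encodes the repressor ICER from an internal promoter, and Sik1 encodes a kinase that keeps CREB coactivators out of the nucleus. In the intestine cAMP is best known as the signal that drives chloride secretion by the epithelium. The NR4A proteins are orphan nuclear receptors (Nr4a1 is also called Nur77, Nr4a2 Nurr1 and Nr4a3 Nor1) that act without a known hormone and whose activity follows their transcription.

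The sequence just upstream of the NR4A starts is shown because the 3 receptors share a feature there. The 10 genes were grouped as NR4A receptors and cAMP-responsive genes, so matches to the CRE are not independent of that choice. RefSeq promoter sequences (mouse build GRCm38.p6) were at hand for 6 of the 10 genes, with 9 transcript starts in all, and Crem, Sik1, Gem and Arc had no entry. The 250 bases before each start were searched on both strands for the full CRE TGACGTCA, for its core TGACG, which also lies inside the full CRE, and for the NR4A-binding element AAAGGTCA. Capitals below mark the core, written TGACG where it reads along the printed strand and CGTCA where it lies on the other strand.
Nr4a1: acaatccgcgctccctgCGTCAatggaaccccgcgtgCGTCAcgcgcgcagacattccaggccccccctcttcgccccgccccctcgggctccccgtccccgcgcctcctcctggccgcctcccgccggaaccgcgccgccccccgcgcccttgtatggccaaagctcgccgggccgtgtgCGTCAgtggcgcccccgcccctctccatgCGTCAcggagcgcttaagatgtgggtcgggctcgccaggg
Nr4a2: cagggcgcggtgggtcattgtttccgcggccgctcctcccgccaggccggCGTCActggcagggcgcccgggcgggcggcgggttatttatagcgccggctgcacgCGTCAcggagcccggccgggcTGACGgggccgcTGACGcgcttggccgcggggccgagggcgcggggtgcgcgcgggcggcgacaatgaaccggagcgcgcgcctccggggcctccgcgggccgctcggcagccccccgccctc
Nr4a3 (first window): catgtCGTCAcatTGACGtctcgcattcca
Nr4a3 (second window): cctgtggcataaaTGACGtgccgagagagc
Rgs2: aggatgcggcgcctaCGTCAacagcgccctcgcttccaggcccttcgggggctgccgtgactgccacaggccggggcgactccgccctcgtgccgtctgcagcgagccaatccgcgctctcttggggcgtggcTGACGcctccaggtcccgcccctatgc
Pde4b: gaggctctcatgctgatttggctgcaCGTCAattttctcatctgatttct
The Nr4a1 run is chr15:101266596-101266845 on the plus strand, and its start lies inside the annotated span of the gene. The Nr4a2 run is chr2:57124004-57124253 on the minus strand. The Nr4a3 windows, chr4:48045087-48045116 and chr4:48045145-48045174 on the plus strand, hold 3 of that gene's 4 cores, and the Rgs2 run is chr1:144004190-144004349 on the minus strand. The Pde4b run, chr4:102421495-102421544 on the plus strand, belongs to 1 of its 4 annotated starts.

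Nr4a1, Nr4a2 and Nr4a3 each held 4 CRE cores within 250 bases of the start. Of 32851 mouse promoters searched in the same way, 45 (0.137%) held at least 4 cores. The cut of 4 is the count that the 3 receptors themselves held. All promoters were used without matching for base composition, although the core contains CG, so the share is a description. Rgs2 held 2 cores, and 3.9% of all promoters held at least 2. Pde4b held 1 core before 1 of its starts and none before the other 3, Pde4d held none, and 17.8% of all promoters held at least 1. None of the 9 promoters held the full CRE, present in 1.55% of all promoters, or the NR4A-binding element, present in 1.34%. In Nr4a3 a core on the other strand at -213 to -209 and a core on the printed strand at -205 to -201 lie back to back, 3 bases apart and reading away from each other, as the first printed window shows. The cores of Nr4a1 all lay on the other strand, at -233, -213, -69 and -40 counted to their first base from the start, whereas Nr4a2 and Nr4a3 had cores on both strands. A match is a run of letters and not a measured binding site.

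**Figure D1:**
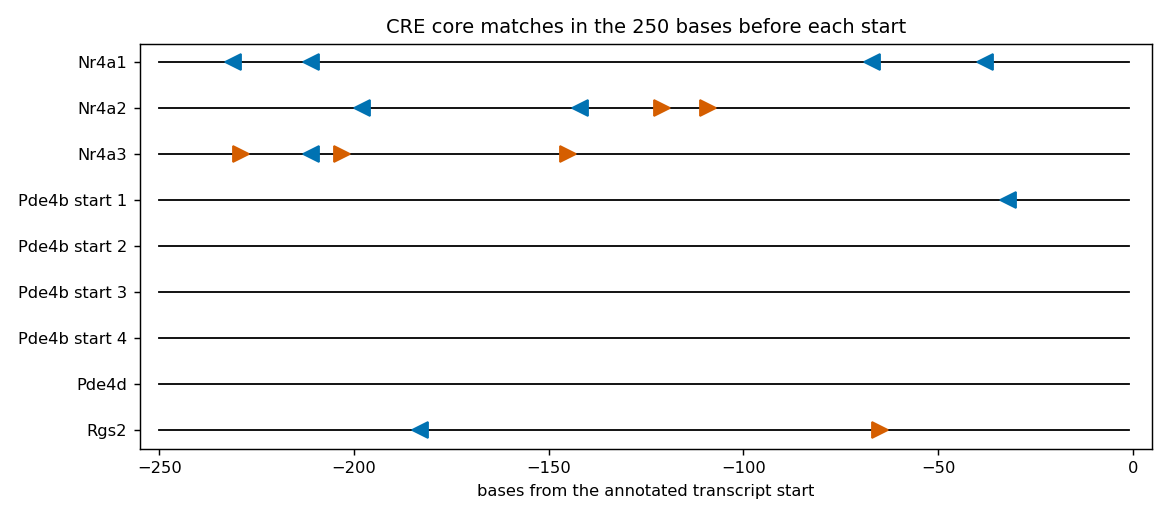
Positions of the CRE core in the 250 bases before each annotated start of the 6 genes with a promoter entry, drawn to scale in bases from the start; orange arrowheads are cores that read in the direction of transcription and blue arrowheads cores on the other strand. The 3 NR4A genes hold 4 arrowheads each, Rgs2 holds 2, 1 of 4 Pde4b starts holds 1 and Pde4d holds none.

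The median signal of a probe set was 20 to 23.1 on the control arrays, 18.6 to 23.5 on the 3 h arrays and 16.8 to 23.9 on the 12 h arrays. The colon epithelium markers (12 of 12 measured) had a summed signal of 49004 to 61780 in control, 45521 to 56896 at 3 h and 43651 to 60749 at 12 h, so the labelled tissue was present on every array. Pancreatic acinar markers (12 of 15 measured) set 5 arrays apart with a mean log2 level above 9: control replicate 1, 3 h replicate 3, and 12 h replicates 1, 3 and 4. Mesenteric fat markers (10 of 12 measured) summed to 2025 to 2565 in control, 3963 to 5346 at 3 h and 2192 to 5062 at 12 h, and the leptin probe set stayed at or below 16 on every array. Posterior Hox genes (9 of 9 measured) summed to 1719 to 2250 in control, 808 to 1220 at 3 h and 1647 to 1939 at 12 h, with Hoxc10 and Hoxd12 at or below 16 on every array. Macrophage markers (9 of 9) summed to 1688 to 1967 at 3 h and 1986 to 2732 in control, and T and NK cell markers (9 of 9) to 156 to 309 at 3 h and 101 to 138 in control. Of these markers, limma called 1 colon epithelium gene and 2 fat genes higher at 3 h and 4 Hox genes and 1 macrophage gene lower. Fibroblast markers (8 of 8) summed to 7360 to 8210 at 12 h, against 10205 to 11554 at 3 h and 10503 to 13748 in control. Macrophage sums at 12 h, 1737 to 1964, also lay below the control range. The mean log2 levels of smooth muscle, enteric neuron, mast cell and endothelial markers overlapped at 3 h against control and at 12 h against 3 h. Smooth muscle sums at 12 h were 14979, 16087, 16959 and 23904, against 21947 to 31146 at 3 h and 21977 to 26295 in control. Only 12 h replicate 4 reached either range. The part of these 12 h levels in the values below was not tested. At 3 h the fat and T cell sums thus lay above, and the Hox and macrophage sums below, the whole control range, and their part in the values below was not tested. In bulk tissue, fewer cells of a type and less RNA per cell cannot be told apart.

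All values below are the deposited linear signals, scaled by the authors, of the probe set with the highest mean signal for each gene. Differences are on the log2(signal + 16) scale with the standard error (SE) of a limma fit to all 11 arrays, and this offset shrinks the difference of dim genes. Signals are compared between arrays and never between genes, because probe sets differ in how brightly they hybridise.

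Among the receptors, Nr4a2 showed the clearest separation. Nr4a2 had signals of 97.5, 104.5, 98.3 and 81.1 on the 3 h arrays, against 30.7, 40.1 and 36.7 on the control arrays. Every 3 h array was above every control array, and the mean of 95.4 ± 10 at 3 h was 2.66 times the mean of 35.8 ± 4.76 in control (SD, n = 4 and 3). The log2 difference was 1.10 ± 0.11 (SE). At 12 h the Nr4a2 signals were 40.3, 32.6, 33.3 and 29.9, which spanned the control range.

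Nr4a3 had signals of 108.1, 97.1, 85.1 and 74.6 at 3 h, against 44.5, 19.8 and 17.9 in control. The groups did not overlap, although control replicate 1, an array high in pancreatic transcripts, stood well above the other 2 controls. The mean was 91.2 ± 14.5 at 3 h and 27.4 ± 14.8 in control (SD, n = 4 and 3), a log2 difference of 1.35 ± 0.22 (SE). At 12 h Nr4a3 stood at 24.6, 15.6, 37.4 and 20.8, within the control range but for the lowest array.

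Nr4a1, the receptor named Nur77, did not separate the groups. Its signals were 116.0, 81.8, 126.0 and 97.5 at 3 h, against 73.4, 51.2 and 103.6 in control. Control replicate 3 lay above 2 of the 4 arrays at 3 h. The log2 difference was 0.42 ± 0.22 (SE), with a 95% interval from -0.06 to 0.91. At 12 h Nr4a1 had 71.2, 42.4, 76.9 and 85.4, and 3 of those 4 arrays lay inside the control range.

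**Figure D2:**
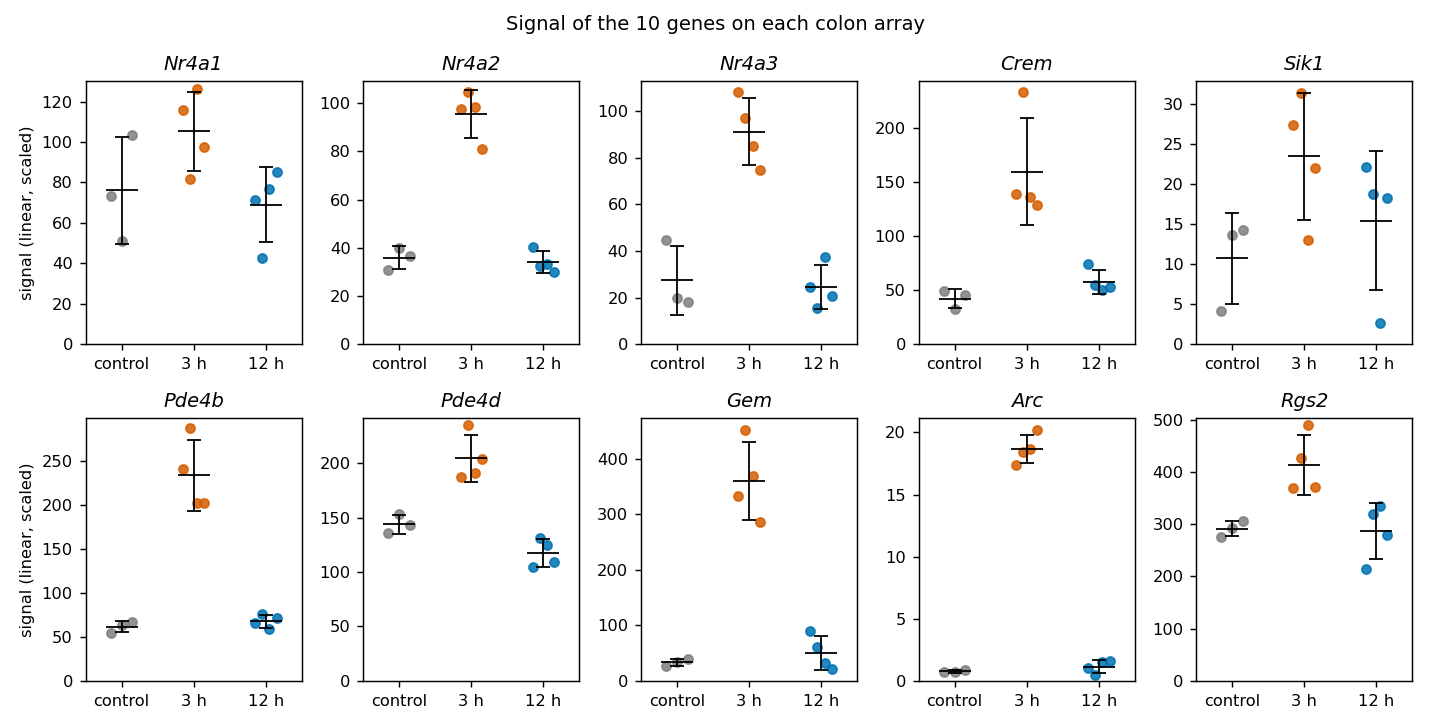
Linear signal (scaled, each panel from 0) of the 10 genes on every array, as points, for control (3 arrays), 3 h after imatinib (4) and 12 h after imatinib (4); the long bar is the mean and the whiskers are 1 SD. The 3 h points stand above all control points in 8 panels, overlap them for Nr4a1 and Sik1, and the 12 h points lie near control.

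Crem, which encodes the CREB-family repressor, had signals of 139.1, 232.9, 136.3 and 128.4 at 3 h, against 48.9, 32.2 and 45.3 in control. The 3 h replicate 2 array stood far above the other 3, which lay close together. The mean was 159.2 ± 49.4 at 3 h and 42.1 ± 8.79 in control (SD, n = 4 and 3), a ratio of 3.78 and a log2 difference of 1.57 ± 0.19 (SE). At 12 h Crem had 73.8, 54.4, 49.8 and 52.5, and all 4 arrays were above the highest control array, by little: the log2 difference was 0.34 ± 0.19 (SE), with a 95% interval from -0.08 to 0.76. Crem was the only one of the 10 genes whose 12 h arrays all lay above control, where 6.02% of all genes did, so 1 of 10 is near the background. The other Crem probe set called higher at 3 h overlapped control at 12 h. It had 43.9, 14.5, 28.3 and 25.5, against 33.8, 17.2 and 31.9 in control (log2 difference -0.0045).

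Sik1, the salt-inducible kinase, was dim on every array. It had 27.4, 31.4, 13 and 22 at 3 h, against 4.2, 13.6 and 14.3 in control, and the 3 h replicate 3 array lay inside the control range. The log2 difference was 0.56 ± 0.25 (SE). At 12 h the signals of 22.1, 18.7, 2.6 and 18.3 spread from below to above control.

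Both cAMP phosphodiesterase genes stood above control at 3 h. Pde4b had 241.6, 287.7, 202.6 and 202.7 at 3 h, against 54.8, 63.8 and 66.6 in control. The lowest 3 h array exceeded the highest control array by far, and the means of 233.7 ± 40.4 at 3 h and 61.7 ± 6.17 in control (SD, n = 4 and 3) differed by 1.67 ± 0.13 (SE) on the log2 scale. At 12 h Pde4b had 66.2, 76.1, 58.9 and 71.0, overlapping control.

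Pde4d had 187.8, 235.3, 191.3 and 204.1 at 3 h, against 135.6, 153.1 and 143.1 in control. The groups did not overlap, and the log2 difference was 0.46 ± 0.11 (SE), a ratio of mean signals of 1.42. At 12 h Pde4d had 104.8, 131.7, 125.2 and 109.1, all below the lowest control array. That log2 difference was -0.26 ± 0.11 (SE), with a 95% interval from -0.50 to -0.02. Pde4d was the only one of the 10 genes with all 12 h arrays below control, where 6.96% of all genes lay, so 1 of 10 is near the background.

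Gem had the largest log2 difference of the 10 genes with the offset of 16. It encodes a small GTPase of the RGK family that restrains voltage-gated calcium channels. Its signals were 333.0, 452.6, 370.1 and 286.1 at 3 h, against 26.8, 34.6 and 38.8 in control. The mean of 360.5 ± 70.4 at 3 h was 10.8 times the mean of 33.4 ± 6.09 in control (SD, n = 4 and 3), and the log2 difference was 2.92 ± 0.29 (SE). At 12 h the arrays disagreed: Gem had 89.6 and 60.9 on replicates 1 and 2, above every control array, but 32.5 and 21.3 on replicates 3 and 4, inside and below the control range.

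Arc, known in neurons as an immediate early gene whose product acts at synapses, had 17.4, 18.4, 18.7 and 20.2 at 3 h, against 0.7, 0.7 and 0.9 in control. The control signals were near 0, so no ratio is given, and the 3 h signals lay near the median signal of all probe sets. The log2 difference was 1.05 ± 0.08 (SE), and it depends on the offset: with an offset of 1 it was 3.48, against 3.39 for Gem on that scale. At 12 h Arc had 1.0, 0.5, 1.5 and 1.6, again near 0.

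Rgs2, a regulator that switches off G protein signalling, had 368.4, 427.3, 489.7 and 370.2 at 3 h, against 275.7, 292.6 and 305.4 in control. The groups did not overlap, and the log2 difference was 0.48 ± 0.15 (SE), a ratio of mean signals of 1.42. At 12 h Rgs2 had 213.4, 319.6, 334.9 and 279.7, from below the lowest to above the highest control array.

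At 3 h against control, limma with Benjamini-Hochberg adjustment over all genes called 6 of the 10 genes higher (Nr4a2, Nr4a3, Crem, Pde4b, Gem and Arc) and none lower, where it called 1.43% of all genes higher and 1.11% lower. In 8 of the 10 genes (also Pde4d and Rgs2) every 3 h array lay above every control array, as in 6.76% of all genes. The median log2 difference was 1.08 over the 10 genes and -0.02 over all genes. These counts follow from how the genes were chosen and support nothing further. The 3 h replicate 2 array held the highest 3 h signal in 6 of the 10 genes.

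**Figure D3:**
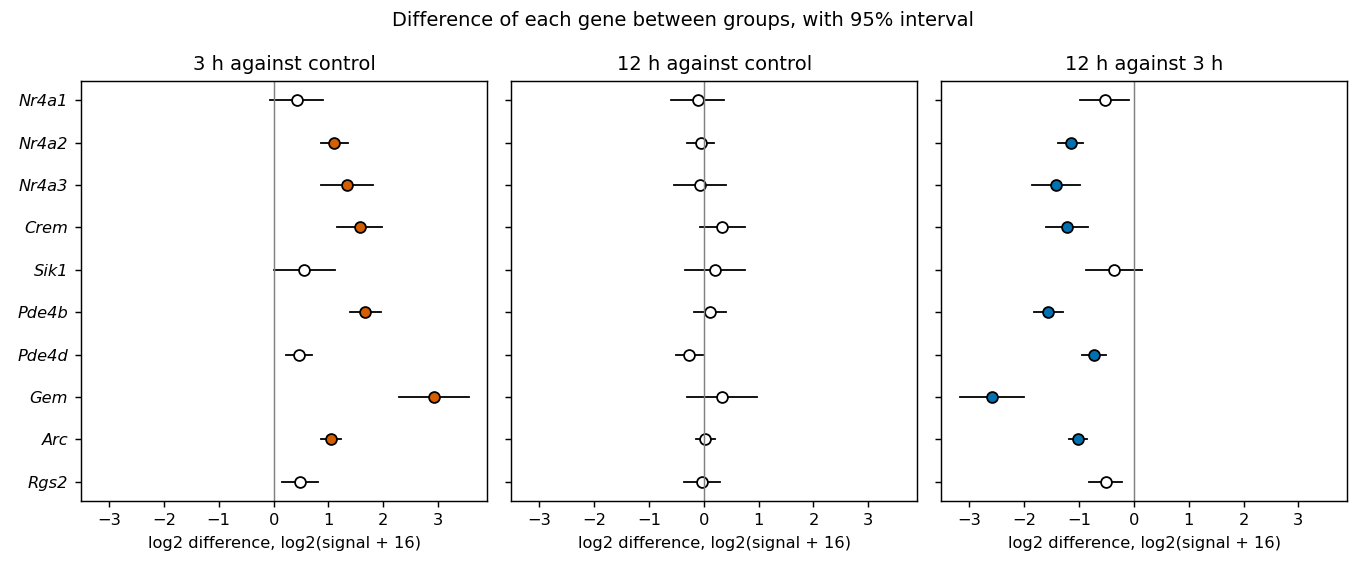
Log2 difference of each of the 10 genes, on the log2(signal + 16) scale, in 3 panels that set 3 h and then 12 h against control, and last 12 h against 3 h; points are estimates, lines 95% intervals of the limma fit, and filled points passed an adjusted p of 0.05 (orange higher, blue lower). Gem reaches 2.92 at 3 h, no point is filled at 12 h against control, and all 10 points lie below 0 at 12 h against 3 h.

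At 12 h against control, none of the 10 genes was called, where limma called 0.781% of all genes higher and 0.835% lower, 142 and 152 genes. With each array shifted to an equal median those all-gene counts were 164 and 115. The log2 differences of the 10 genes ran from -0.26 for Pde4d to 0.34 for Crem, 5 of the 10 were positive and their median was -0.003.

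Between the times, the log2 difference of 12 h against 3 h was negative for all 10 genes. Limma called 7 of them lower (Nr4a2, Nr4a3, Crem, Pde4b, Pde4d, Gem and Arc), where it called 2.09% of all genes lower and 1.99% higher, and in 8 of the 10 (also Rgs2) no 12 h array reached a 3 h array, as in 5.26% of all genes. The log2 differences of 12 h against 3 h were -2.59 ± 0.27 for Gem, -1.56 ± 0.12 for Pde4b, -1.42 ± 0.20 for Nr4a3, -1.22 ± 0.18 for Crem, -1.15 ± 0.10 for Nr4a2 and -1.02 ± 0.08 for Arc (SE). Pde4d differed by -0.72 ± 0.10, Nr4a1 by -0.53 ± 0.21, Rgs2 by -0.51 ± 0.14 and Sik1 by -0.36 ± 0.23 (SE). The comparison shares the 3 h arrays with that against control, so the pair are not independent.

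Without the 5 arrays high in pancreatic transcripts, which leaves 3 arrays at 3 h, 1 at 12 h and 2 controls, 5 of the 10 genes were called higher at 3 h and Crem was not, although its log2 difference was 1.71. The values at 3 h were then 1.02 for Nr4a2, 1.64 for Nr4a3, 1.67 for Pde4b, 2.80 for Gem and 1.04 for Arc. With 1 array at 12 h, whose spread is then assumed to be that of the other groups, none was called between 12 h and 3 h, and all 10 differences kept their negative sign, from -2.25 for Gem to -0.27 for Rgs2.

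Several genes had more than 1 probe set, and these did not all move. Over all probe sets, 9 of the 30 were called higher at 3 h, from 6 genes, where 0.838% of all probe sets were. Nr4a2 had 6 probe sets: the log2 differences at 3 h were 1.10 and 1.24 for the called pair and 0.58, 0.29, 0.13 and 0.04 for the others. The moving pair were the brightest by mean signal. Nr4a3 had 3, with 1.35 for the called one and 0.13 and -0.14 for the others, both of which had mean signals below 16. Crem had 4, with 1.57 and 1.31 for the called pair and 0.29 and 0.07 for the others. In Crem, unlike Nr4a2, the called pair were brighter than the others on the control arrays as well. Pde4b had 6, with 1.67 and 1.5 for the called pair and 0.08 to 0.53 for the rest. Rgs2 had 4, and all were higher, by 0.48, 0.47, 0.76 and 0.53, but none was called. Of the 30 probe sets, 15 stayed below 32 on every array, and Arc's was the only one of these called.

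**Figure D4:**
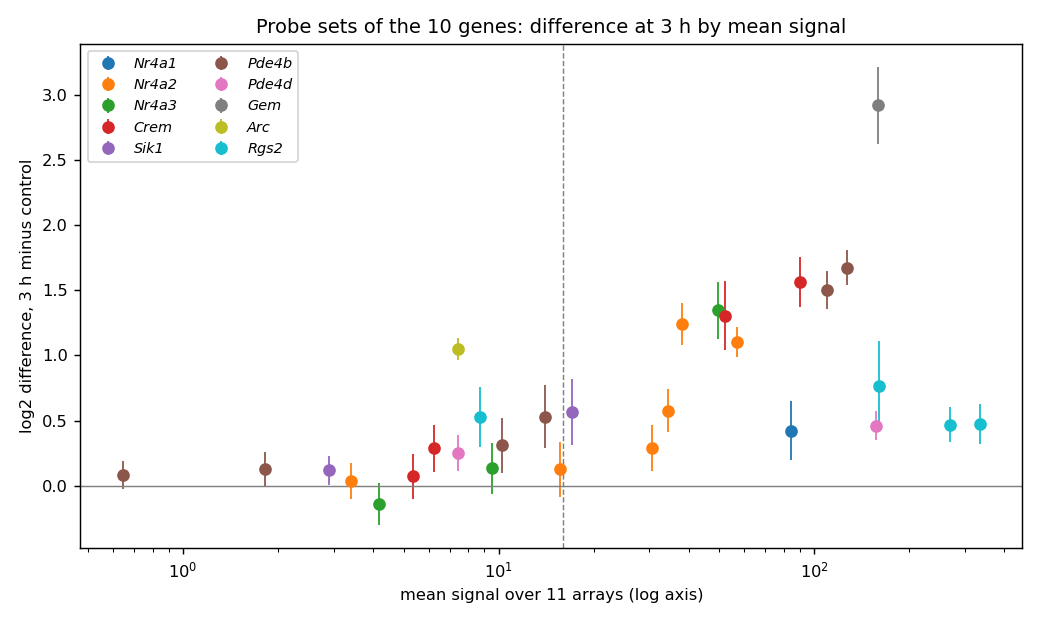
Each of the 30 probe sets of the 10 genes by its mean signal over 11 arrays (log axis) and its log2 difference at 3 h minus control, with 1 SE as whiskers; the dashed line marks a signal of 16, the offset. Probe sets left of the line lie between -0.14 and 1.05, and the largest difference, 2.92, belongs to Gem.

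The wider pathway was read from 8 lists of other genes, grouped by role, which hold none of the 10 genes. These lists were also drawn up with earlier results of these arrays known. Of 129 listed genes 118 were measured and the rest were not analysed here. At 3 h against control 13 of the 118 rose and 2 fell (11% and 1.69%), where 1.43% of all genes rose and 1.11% fell, so the share that fell was near the background. An unadjusted limma p under 0.05 was found for 34 of the 118 (28.8%) and for 15% of all genes. Their median log2 difference was 0.04, against -0.02 over all genes. At 12 h against control 2 rose and 3 fell (1.69% and 2.54%), where 0.781% of all genes rose and 0.835% fell. That count of 5 ran from 1 to 8 as single arrays were left out. An unadjusted p under 0.05 was found for 22 of the 118 (18.6%) and for 15.8% of all genes, close to the background. The 3 h count of 15 dropped to 8 without control replicate 1, 8 without control replicate 2 and 7 without the 5 arrays high in pancreatic transcripts. Of the genes named below, Akap12, Pde9a, Il6, Cebpb and Fst were still called at 3 h without those 5 arrays, and Pde10a, Per1, Fos, Dusp1 and Rgs10 were not (limma adjusted p of 0.0511 to 0.295). With 6 of the 11 arrays left, the log2 differences of those 5 genes were 0.73 for Pde10a, 0.74 for Per1, -0.84 for Fos, 0.89 for Dusp1 and -0.42 for Rgs10.

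Receptors, G proteins, adenylyl cyclases and CREB factors held no call in any of the comparisons. At 3 h against control 1.43% of all genes rose and 1.11% fell, so for lists this short no call is near the background. An unadjusted p under 0.05 was found for 15% of all genes at 3 h and 15.8% at 12 h. Of the receptors and peptides that raise cAMP (15 of 21 measured), limma called 0 at 3 h, with 3 at an unadjusted p under 0.05, and 0 at 12 h, with 2. Of the G proteins and adenylyl cyclases (15 of 15), 0 were called at either time, with 3 at an unadjusted p under 0.05 each. Gnas, the stimulatory G protein alpha subunit, had 3327 ± 197 in control, 3327 ± 154 at 3 h and 2944 ± 255 at 12 h (SD, n = 3, 4 and 4). The stimulatory subunit thus sat at the same mean level in control and at 3 h. Of the CREB factors, coactivators and other salt-inducible kinases (8 of 9), 0 were called at either time, with 1 at an unadjusted p under 0.05 at 3 h and 0 at 12 h. Creb1, the CREB gene itself, had 325.8 ± 11.8 at 3 h, against 397.6 ± 26.0 in control, and did not pass the limma test (log2 difference -0.27 ± 0.09, adjusted p = 0.165). The other Creb1 probe sets did not agree in sign, with -0.10, 0.27, -0.09, -0.27 and 0.05 at 3 h. The retinoid X receptors that pair with NR4A proteins (3 of 3) gave 0 calls, with 1 at an unadjusted p under 0.05 at 3 h and 0 at 12 h. Rxra had 179.2 ± 13.2 at 3 h, against 195.4 ± 13.3 in control.

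Among PKA subunits, anchors and inhibitors (15 of 16 measured), 1 gene rose at 3 h (6.67%) and none fell, where 1.43% of all genes rose and 1.11% fell. An unadjusted limma p under 0.05 was found for 2 of the 15 at 3 h and for 15% of all genes, so that share is near the background. Akap12, a scaffold that anchors PKA near the membrane, had 392.1, 607.5, 477.2 and 389.4 at 3 h, against 167.7, 150.4 and 127.6 in control. It rose by 1.54 ± 0.18 (SE; limma adjusted p = 0.000759), and at 12 h it was lower than at 3 h by a log2 difference of -1.84 (limma adjusted p = 7.07e-05). Akap13, another anchor, had 488.6 ± 35.6 at 12 h, against 685.0 ± 13.9 in control (log2 difference -0.48, limma adjusted p = 0.0361). That call was lost when any of 9 single arrays was left out, with adjusted p up to 0.132. Prkaca, the PKA catalytic subunit, had 289.0 ± 48.9 at 3 h, against 234.3 ± 22.3 in control, and did not pass the test (limma adjusted p = 0.47). Its log2 difference was 0.28, and the other Prkaca probe set gave 0.001.

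Among the other phosphodiesterases (15 of 16 measured), 2 genes rose at 3 h (13.3%) and none fell, where 1.43% of all genes rose and 1.11% fell. An unadjusted limma p under 0.05 was found for 5 of the 15 at 3 h and for 15% of all genes. Pde9a, which degrades cyclic GMP, had 1142.3, 926.2, 1011.2 and 1073.7 at 3 h, against 381.7, 389.7 and 502.6 in control, and rose by 1.27 ± 0.18 (SE; limma adjusted p = 0.00387). Pde10a, which degrades both cyclic nucleotides, was dim and had 27.9 ± 4.84 at 3 h, against 8.20 ± 2.95 in control (log2 difference 0.86, limma adjusted p = 0.0067). The other Pde10a probe sets, dimmer still, gave log2 differences of 0.45, 0.36, 0.15 and -0.08 at 3 h. Pde7a, specific for cAMP, fell at 12 h, to 226.5 ± 46.3, against 459.7 ± 98.4 in control (log2 difference -0.97, limma adjusted p = 0.024). It was not called without control replicate 1, control replicate 2 or 12 h replicate 3 (adjusted p up to 0.105). Pde3a, a cAMP phosphodiesterase of smooth muscle, had 50.2 ± 7.67 at 12 h, against 84.8 ± 6.61 at 3 h (log2 difference -0.61, limma adjusted p = 0.0098).

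**Figure D5:**
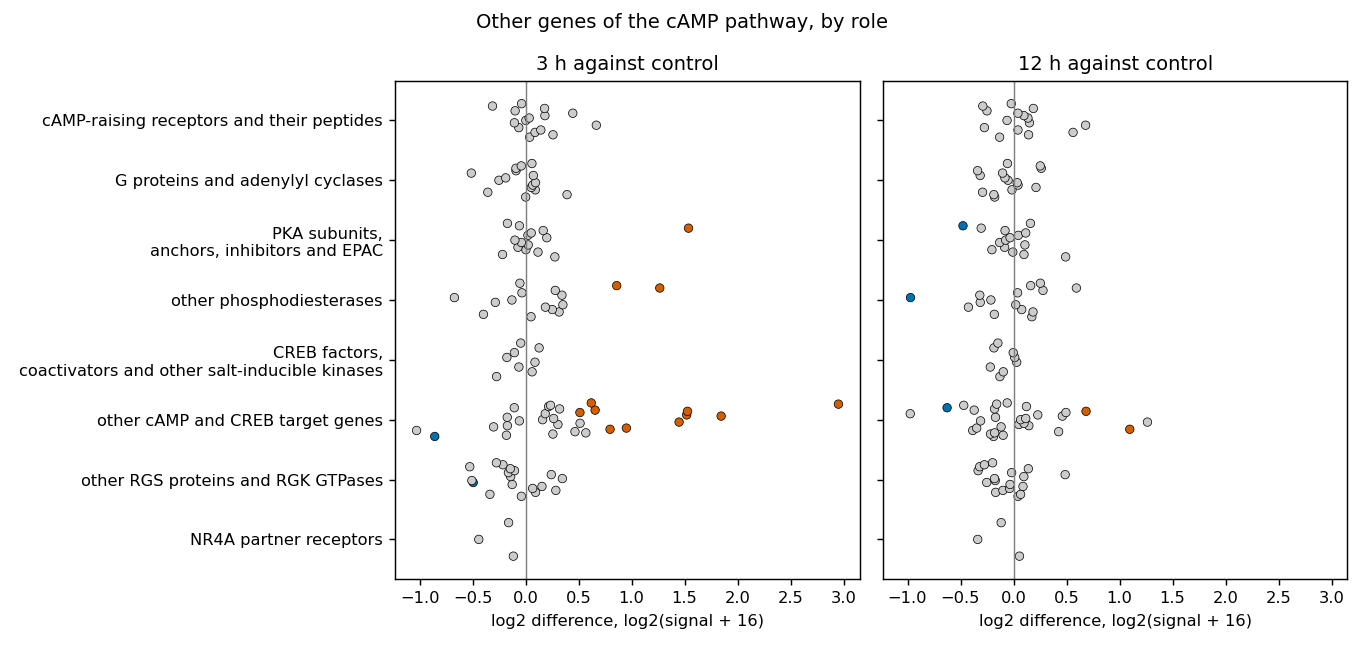
Log2 difference, on the log2(signal + 16) scale, of the 118 measured genes of the 8 pathway lists at 3 h and at 12 h against control, 1 point per gene; orange points rose and blue points fell at a limma adjusted p of 0.05, grey points did not pass. Most orange points at 3 h, 10 of 13, belong to the list of other cAMP and CREB target genes. The lists were drawn up with earlier results of these arrays known.

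The other cAMP and CREB target genes (29 of 30 measured) held most of the calls. At 3 h 10 rose and 1 fell (34.5% and 3.45%), where 1.43% of all genes rose and 1.11% fell. At 12 h 2 rose and 1 fell (6.9% and 3.45%), where 0.781% of all genes rose and 0.835% fell. This list too was drawn up with earlier results known, so its share of the calls may follow in part from that choice. The median log2 difference of the 29 genes at 3 h was 0.30. Il6, the cytokine interleukin 6, had 31.2, 34.7, 30.9 and 29.6 at 3 h, against 0.7, 0.4 and 0.7 in control (log2 difference 1.52, limma adjusted p = 0.000174). The control signals of Il6 were near 0, so the size of its difference depends on the offset. Cebpb, a transcription factor of the acute phase and of fat cell differentiation, had 742.0 ± 63.6 at 3 h, against 196.9 ± 39.0 in control (log2 difference 1.84, limma adjusted p = 0.000319). On all 3 h arrays these 2 genes lay above every control array, and so did the next, as in 6.76% of all genes. Fst, the activin-binding protein follistatin, had 104.2 ± 8.05 at 3 h, against 25.9 ± 6.19 in control (log2 difference 1.53, limma adjusted p = 0.000319). Per1, a clock repressor, had 40.9 ± 4.66 in control, 82.6 ± 4.41 at 3 h and 105.7 ± 11.9 at 12 h, and rose at both times (limma adjusted p = 0.0024 at 3 h and 0.000257 at 12 h). Many genes of this list answer to other signals as well, among them glucocorticoids and inflammation.

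The target list did not move as one. Fos, the best-known CREB target among immediate early genes, fell at 3 h: it had 908.8, 1007.6, 872.0 and 975.0, against 1662.2, 1817.4 and 1669.0 in control (log2 difference -0.86, limma adjusted p = 0.0143; lost without either of 2 single arrays, up to 0.0694). Dusp1, a phosphatase of MAP kinases, rose at 3 h, to 820.4 ± 138.1, against 419.1 ± 98.3 in control (log2 difference 0.95, limma adjusted p = 0.0336; lost without any of 5 single arrays, up to 0.136). Fos and Dusp1 were named after their values were seen. Fst at 12 h had 51.8 ± 12.6, against 25.9 ± 6.19 in control, with a limma adjusted p of 0.0475 that 10 of the 11 single omissions lost.

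None of the measured relatives of Rgs2 and Gem rose against control. Of the other RGS proteins and RGK GTPases (18 of 19 measured), none rose at 3 h or 12 h. Over all genes 1.43% and 0.781% rose, so for 18 genes no rise is near the background. At 3 h 1 fell, where 1.11% of all genes fell. An unadjusted limma p under 0.05 was found for 4 at 3 h and 2 at 12 h, and for 15% and 15.8% of all genes. Rgs10 had 195.4 ± 20 at 3 h, against 281.9 ± 30.8 in control (log2 difference -0.49, limma adjusted p = 0.0307), a call lost without any of 6 single arrays (up to 0.14). Between 12 h and 3 h, 1 pathway gene was higher and 14 were lower out of 118 (0.847% and 11.9%), where 1.99% of all genes were higher and 2.09% lower. An unadjusted p under 0.05 was found for 37 (31.4%) and for 17.7% of all genes. Without the 5 arrays high in pancreatic transcripts, which leaves 1 array at 12 h, 1 gene was called.

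The genes whose levels ran most like each receptor over the 11 arrays were taken from genes with a mean log2 level of at least 6. They are the 3 highest of 9082 coefficients for Nr4a1 and Nr4a2 and of 9083 for Nr4a3. High values thus follow in part from picking the highest, and none was tested. Nr4a2 ran most like Adamts4 (Pearson r = 0.987), Nfil3 (0.979) and Slc10a6 (0.976). Adamts4, a matrix protease, had 254.9, 356.0, 234.9 and 158.5 at 3 h, against 15.2, 13.8 and 22.7 in control. Nr4a3 ran most like Slc7a1 (0.949), Adamts9 (0.943) and Pex16 (0.941), and Nr4a1 most like Fam124a (0.949), Slc25a39 (0.927) and Csnk1g2 (0.890). Slc25a39 differed little between groups, with 3116.1, 2948.9, 3149.6 and 3041.9 at 3 h, against 2932.7, 2798.5 and 3055.8 in control. Slc7a1, an arginine and lysine transporter, had 699.0, 474.1, 399.5 and 518.7 at 3 h, against 253.6, 196.3 and 191.3 in control. For Nr4a2 and Nr4a3 the 3 h arrays stood apart from the rest, and these arrays enter each coefficient. Among the receptors themselves r was 0.90 for Nr4a2 with Nr4a3, 0.65 for Nr4a1 with Nr4a3 and 0.60 for Nr4a1 with Nr4a2.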

How the data were processed

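Total RNA of adult C57BL/6 mouse colon was extracted with Trizol and biotin-labelled for Affymetrix arrays, per the labels' protocols. The values used are the authors' deposited table of linear signal intensity, with 45101 probe sets on 11 arrays. On each array the mean after trimming 2% at either end was 100, and the software is not given in the sources used here. Arrays give no read depth, and their number limits the precision.

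Of the probe sets, 34945 had exactly 1 gene symbol in the platform annotation, updated through Entrez IDs (99.4% matched). The brightest by mean signal stood for each of 18193 genes. limma 3.58.1 in R 4.3.3 fitted log2(signal + 16) over all 11 arrays (lmFit, contrasts, eBayes), 2-sided, with Benjamini-Hochberg adjustment over all genes and calls at an adjusted p under 0.05. The fit was tested on simulated data. The 10 genes, the 8 pathway lists and the markers were chosen with earlier results of these data known. Named genes were, per pathway list, up to 4 with the smallest p among those called, plus Creb1, Prkaca, Gnas and Rxra, and the 3 genes most correlated with each receptor, predicted genes left out. Promoters were searched with Python 3.11.15 in RefSeq sequences.

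Replicate numbers were checked for pairing: 10 same-numbered pairs correlated at -0.21 to 0.31 in their deviations from group means, and 3 were over 0.1. Differently numbered pairs ran from -0.40 to 0.31. Of the 3, control 1 with 12 h 1 and 3 h 3 with 12 h 3 joined arrays high in pancreatic transcripts. The check thus cannot decide pairing, and the numbers were not taken as pairs. No 2 arrays held identical values. Alternatives were offsets of 1 and 64, equal medians, quantile normalization, a minimum mean signal of 32, the mean of all probe sets, fits to 2 groups, array weights, another variance prior, a replicate block, a threshold of 0.1, each array left out and, chosen after seeing the data, the 5 arrays high in pancreatic transcripts left out.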

Additional observations from a re-analysis of the deposited data

Results flagged for a closer look

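In groups of 4 arrays, a lone array stood apart in 4 of 54 groups, where chance alone flags about 1 in 20. On the log2 scale, the gap to the nearest array as a share of the group's range was 0.869 for Crem at 3 h (replicate 2, 232.9), 0.853 for Sik1 at 12 h (replicate 3, 2.6), 0.855 for Akap13 at 12 h (replicate 2, 435.8) and 0.855 for Fst at 3 h (replicate 2, 92.2).

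The change at 12 h differed from that at 3 h, by limma's test of 12 h against 3 h, for 10 named pathway genes. The log2 differences were -1.84 for Akap12, -1.38 for Cebpb, -1.30 for Dusp1, -1.29 for Il6, -0.84 for Fst, -0.70 for Pde10a, -0.67 for Pde9a, -0.61 for Pde3a and -0.42 for Akap13, and 0.67 for Fos. The calls for Pde9a, Fos and Akap13 were lost when single arrays were left out, for 9, 4 and 4 of the 11 arrays, with adjusted p up to 0.122, 0.0671 and 0.077.

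The poly-A control RNAs added during labelling, which no comparison uses, had a mean summed signal of 4772 ± 424 in control, 5478 ± 363 at 3 h and 8240 ± 2697 at 12 h (SD, n = 3, 4 and 4). Their part in the 12 h values was not tested.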

How the results depend on the processing

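No called difference of the named genes changed sign under any alternative. Among the uncalled differences of the 10 genes, 5 changed sign under at least 1 alternative, all at 12 h against control and near 0. These were Nr4a1 (-0.11, and 0.10 without control replicate 3), Nr4a3 (-0.07, and 0.19 without control replicate 1), Nr4a2, Arc and Rgs2. Uncalled differences of the other named genes were not checked. Of the 10 genes, 6 were called at 3 h and 7 at 12 h against 3 h; leaving out single arrays gave 6 to 7 and 7, none was ever called at 12 h against control, and without the 5 arrays high in pancreatic transcripts, which leaves 1 array at 12 h, the 12 h against 3 h count was 0. Pde4d was also called at 3 h with equal medians, quantile normalization, an offset of 64, the signal minimum, array weights, the other variance prior, an adjusted p of 0.1 and without 12 h replicate 1. Over 684 values of the 10 genes, 642 moved by less than 1 SD and 42 by more. The 642 include values that could not move. The other variance prior, the adjusted p of 0.1, the signal minimum and fits to only the compared groups leave a log2 difference unchanged. Leaving out an array of the group not compared also leaves it unchanged, as does averaging where a gene has 1 probe set. The count of 642 thus overstates how stable the differences were. Averaging all probe sets gave 3 h log2 differences of 0.56 for Nr4a2, 0.45 for Nr4a3, 0.81 for Crem and 0.70 for Pde4b.

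All genes called at 3 h against control numbered 463, and 228 with an offset of 1, 704 with the signal minimum, 879 at an adjusted p of 0.1 and 80 without the 5 arrays; single omissions gave 161 to 520, lowest without control replicate 2. Pathway calls there were 15, and 9 with an offset of 1, 7 without the 5 arrays and 8 to 16 with single omissions. At 12 h against control all genes numbered 294, and 80 with an offset of 1, 492 with an offset of 64, 570 with the signal minimum, 60 with only the 2 groups, 527 with the other variance prior, 682 at 0.1 and 8 without the 5 arrays (63 to 449 with single omissions, lowest without control replicate 2 and highest without 12 h replicate 4). Pathway calls there were 5, and 1 with an offset of 1, 3 with the mean of probe sets, 1 with only the 2 groups, 8 at 0.1 and 0 without the 5 arrays (1 to 8 with single omissions). At 12 h against 3 h all genes numbered 742, and 437 with an offset of 1, 1276 at 0.1 and 16 without the 5 arrays (391 to 755 with single omissions). Pathway calls there were 15, and 25 at 0.1 and 1 without the 5 arrays (11 to 16 with single omissions).

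With the replicate block, all-gene calls were 278 at 3 h, 182 at 12 h and 467 at 12 h against 3 h, pathway calls at 12 h were 2, and the 10 genes had 6 calls at 3 h and 8 at 12 h against 3 h. Of the calls, 56.4% were rises at 3 h; the share was 66.3% with equal medians, 68.7% with the replicate block and 85% without the 5 arrays. At 12 h it was 48.3%, and 58.8% with equal medians. Dim probe sets, 15 of the 30, limit what can be read for Sik1 and Arc.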
